A study of Rattus norvegicus with 24 samples.

Results

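Neonatal rat ventricular myocytes given a miR-222-3p mimic together with a miR-455-3p mimic, and no doxorubicin, were compared with the same cells given a negative control mimic and no doxorubicin. The members are the 6 libraries whose labels carry these treatments, 3 with both mimics and 3 with the control mimic, of 24 libraries in 8 groups. All 21767 genes of the table entered, and the 14303 that passed an expression filter were tested. The cells came from Sprague-Dawley rats, were plated in serum-containing medium and were transfected a day later with each mimic at 5 nM using Lipofectamine RNAiMax, a lipid reagent. Vehicle was added 48 h after transfection and RNA was taken 24 h after that. The other groups received the miR-222 mimic alone or the miR-455 mimic alone without doxorubicin, or one of the 4 mimic treatments with doxorubicin, a cancer drug that injures heart muscle. All groups share the transfection, and untransfected cells were not analysed here. Cells with both mimics received 2 mimics at 5 nM each, and the labels are silent on whether the other wells were brought to that total. No animals or cultures are named behind the replicate numbers, so each p-value reflects only how far these samples spread, which may be technical.

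MicroRNAs are short RNAs that guide Argonaute proteins to messenger RNAs, largely by pairing through the seed, bases 2 to 8, and lower the messages they pair with. A mimic is a synthetic duplex that loads the same guide strand. In the heart miR-222 is known for its rise with exercise and for reported targets that include the cell cycle inhibitor Cdkn1b, and miR-455 is encoded within a collagen gene. The study set out the pair as a combination of interest against doxorubicin injury. The comparison here sets cells given the pair beside cells given the control mimic, both without the drug. An effect of the pair cannot be told apart here from one of the total mimic dose, on which the labels are silent. The mature rat sequences are shown because the seed sets what a microRNA can pair with, and they come from RefSeq on build GRCr8 with the seed in capitals, while the sequences of the mimics themselves were not used here.
rno-miR-222-3p: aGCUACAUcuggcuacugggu
rno-miR-221-3p: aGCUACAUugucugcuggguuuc
rno-miR-455-3p: gCAGUCCAcgggcauauacacu
miR-222-3p lies at chrX:6022682-6022702 on the plus strand, and miR-221-3p, shown because it carries the same seed, lies at chrX:6023246-6023268 on the plus strand. miR-455-3p lies at chr5:81704881-81704902 on the plus strand. The miR-222-3p seed was found in 2 of 724 mature rat microRNAs and the miR-455-3p seed in 1 of 724. Position by position, the 2 seeds share the base at 1 of 7 positions.

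The 6 libraries held 19321093 to 21563132 estimated counts each and 12430 to 13063 genes with at least 10 counts. Replicate 3 of both mimics stood apart from replicates 1 and 2 of its group. Mitochondrially encoded transcripts took 24.9% of its counts, against 8.16% and 6.82% in replicates 1 and 2 and 20.3%, 13.5% and 9.11% in the control libraries. The mean level of 19 hypoxia-induced genes was 7.29, 7.35 and 5.03 log2 CPM in replicates 1 to 3 of both mimics and 4.62, 4.91 and 6.76 log2 CPM in those of the control, so the groups overlapped. Here CPM is the count of a gene relative to the TMM-scaled total of its library. Replicates 1 and 2 of both mimics differed from each other by a chi-square of 7.8 per degree of freedom over genes, against 508 and 575 between each of them and replicate 3 and 109 to 346 between control libraries. Other groups of the fit hold libraries as close: replicates 1 and 2 of miR-222 alone (5.79), replicates 1 and 3 of miR-455 alone (6.98) and all 3 of miR-455 with doxorubicin (7.81 to 9.79). All of these still differed by more than sampling noise and were kept as single libraries. Values without replicate 3 of both mimics, with replicates 1 and 2 of both mimics summed into 1 library, and with the close libraries of every group summed are given beside the results where they move the calls most.

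**Figure D1:**
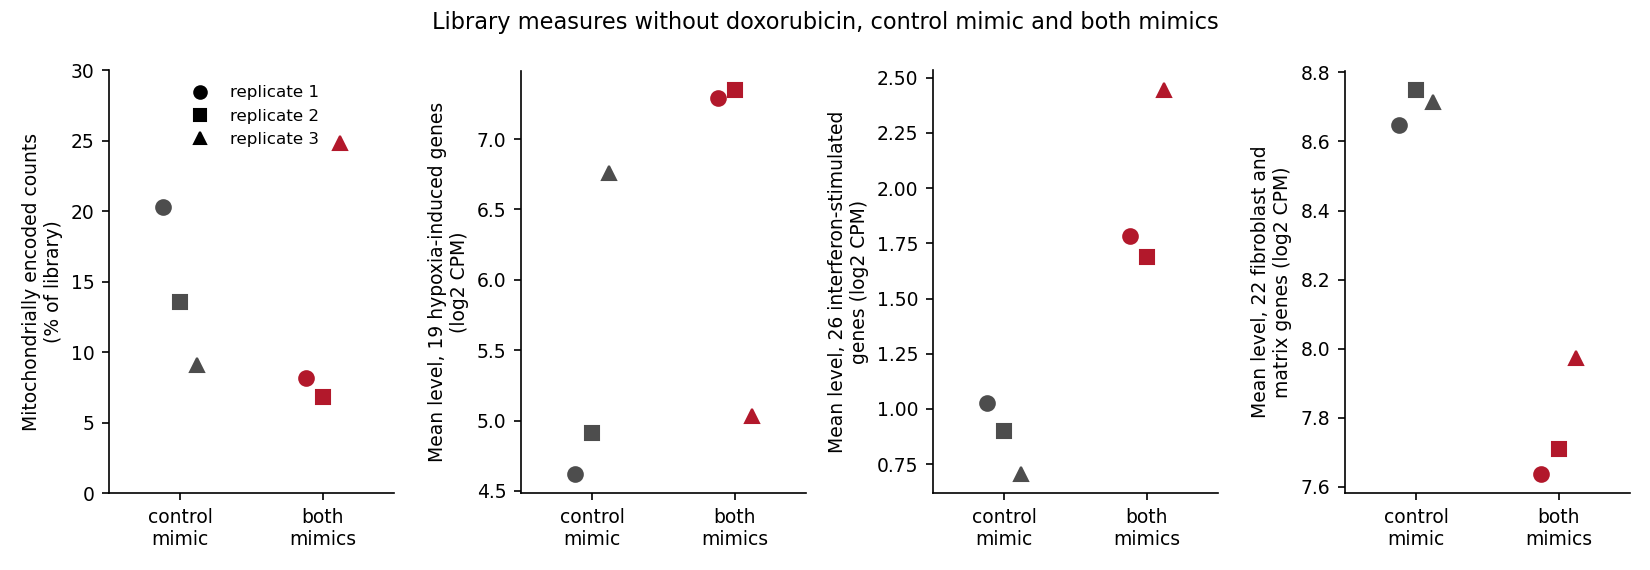
Each panel plots 1 value per library for the control mimic (grey) and both mimics (red), with symbols for the replicate numbers: the percent of counts from mitochondrially encoded genes, and the mean log2 CPM of 3 gene lists. The groups overlap in the mitochondrial share and in the hypoxia-induced genes and do not overlap in the interferon-stimulated genes or in the fibroblast and matrix genes.

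The defining transcripts of heart muscle were present in all 6 libraries. The summed level of 13 cardiomyocyte markers was 23890 to 25260 CPM with both mimics and 17320 to 23010 CPM with the control, without overlap. Markers of other cell types were also present, so the cultures were not pure. The summed level of 22 fibroblast and matrix genes was 25020 to 31260 CPM with both mimics and 34370 to 46320 CPM with the control. That of 9 tested endothelial genes was 37.2 to 39.6 CPM against 83.2 to 159.8 CPM. The endothelial sums rested mainly on Kdr, the growth factor receptor of endothelial cells, at 10.5, 9.89 and 10.99 CPM against 43.9, 45.8 and 31.2 CPM, and on Thbd, at 91.0 CPM in control replicate 3, while Vwf, the von Willebrand factor, stood higher with both mimics (2.39, adjusted p = 0.054, edgeR). Macrophage and leukocyte markers summed to 12.3 to 13.1 CPM against 13.2 to 16.1 CPM. Erythroid markers summed to 1.69 to 7.02 CPM against 0.17 to 1.31 CPM, and with both mimics most of that was Slc4a1, which heart muscle also makes, while Ahsp, the globin chaperone, lay the other way (-0.95, adjusted p = 0.697, edgeR). In each of these 5 sums the groups did not overlap, for which an exact permutation test gives p = 0.1, the smallest that 3 against 3 libraries allow. A mean of log2 CPM, which weights the genes of a list equally, overlapped for the cardiomyocyte, endothelial and macrophage lists (exact permutation p = 0.3, 0.5 and 0.5, n = 3 each) and did not for the fibroblast and erythroid lists (p = 0.1, exact permutation). Sums overlapped for the smooth muscle and pericyte, Schwann and neuronal, and epicardial and mesothelial lists (exact permutation p = 0.2, 0.7 and 0.4). The means of log2 CPM of these lists gave p = 0.1, 0.8 and 0.4 (exact permutation), without overlap only for smooth muscle and pericytes. The endothelial marker Cldn5 and the red cell genes Hbb and Alas2 were at 0 in every library of the comparison. In bulk RNA, fewer cells of a type and less RNA per cell cannot be told apart, and the part of these marker levels in the results that follow was not tested.

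Of 14303 genes tested, 1010 passed an adjusted p of 0.05 with both mimics against the control mimic, which is 7.06% of the genes (edgeR quasi-likelihood test on all 24 libraries, Benjamini-Hochberg adjustment). These are referred to as called. Of them, 525 were higher, 3.67% of genes tested, and 485 were lower, 3.39%. The counts of called genes given for each list below are to be read beside these shares. The median log2 fold change over all genes was 0.07. The libraries of the groups did not overlap for 906 of the 1010, and for 3035 of all genes tested, or 21.2%. The calls kept their direction in every alternative in which the gene was tested. That says little, because the alternatives reuse the same libraries, and where groups do not overlap a left-out library can hardly turn a sign. The number of calls did not hold. It was 267 and 284 without replicates 1 and 2 of both mimics, 2718 without replicate 3, 583 without control replicate 1 and 509 without control replicate 2. With replicates 1 and 2 of both mimics summed it was 282, and a fit of the 6 libraries alone called 0 genes, with 1889 at an unadjusted p under 0.05, where DESeq2 on all libraries called 1871. A total of 223 genes, 105 higher and 118 lower, were called by DESeq2 and in 12 other edgeR fits to all groups, which leave out at most 1 library and sum at most replicates 1 and 2 of both mimics, and these are referred to as kept throughout. A further fit, chosen after seeing the data, summed the close libraries of every group, which left 19 libraries, and called 55 genes, 30 higher and 25 lower. All 55 are among the 1010, and 54 are among the 223. Of the genes of the 35 lists, that fit called Rsad2, Cdkn1c and Slc4a1 higher and Ets1 and Egr2 lower, so each other list gene described below as rising or falling lost its call there. Of the other genes named here as called, it kept Frem1, Ackr4, Tubb4a, Gbp5, Igfbp5 and Cend1.

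Of the 12 called genes that fell furthest, with at least 5 CPM and no overlap between libraries, 7 were kept throughout. Necab1, a neuronal calcium-binding protein, measured 0.427, 0.335 and 1.51 CPM in replicates 1 to 3 of both mimics and 14.1, 15.4 and 9.33 CPM in those of the control, a log2 fold change of -4.10 ± 0.73 (SE; adjusted p = 0.00274, edgeR). All 3 libraries with both mimics lay below all 3 controls, as they did for each of the genes that follow. Egr2, an immediate early transcription factor, measured 1.09, 1.00 and 1.74 CPM against 14.1, 12.4 and 28.8 CPM (-3.85 ± 0.51, adjusted p = 0.000177, edgeR). Frem1, a basement membrane protein, measured 2.52, 2.53 and 4.53 CPM against 35, 59.5 and 25.9 CPM (-3.65 ± 0.47, adjusted p = 0.000143, edgeR). In these 3 genes the levels with both mimics stayed close to each other beside the distance to the controls. Thbd encodes thrombomodulin, an anticoagulant receptor of endothelial cells, and measured 2.64, 3.79 and 2.47 CPM against 10.5, 13.6 and 91 CPM (-3.69 ± 0.64, adjusted p = 0.00222, edgeR). Control replicate 3 was far above the other controls, and without it the log2 fold change of Thbd was -2.05. Ackr4, a receptor that takes up chemokines without signalling, measured 1.36, 0.558 and 0.916 CPM against 5.92, 12.7 and 5.05 CPM (-3.06 ± 0.37, adjusted p = 8.6e-05, edgeR). Hgf, the ligand of the Met receptor, measured 1.28, 1.19 and 1.47 CPM against 15.8, 10.7 and 5.89 CPM (-3.04 ± 0.52, adjusted p = 0.00212, edgeR). C7, a component of the complement attack complex, measured 11.8, 11.6 and 32.5 CPM against 178, 174 and 91.8 CPM (-2.99 ± 0.52, adjusted p = 0.00222, edgeR), with replicate 3 of both mimics above the other 2 libraries of its group. Leaving out that replicate moved C7 to -3.68 and Necab1 to -5.10.

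Of the 12 called genes that rose furthest by the same rule, 6 were kept throughout, and in 5 of these 6 replicate 3 of both mimics was the lowest library of its group. Syt7, a calcium sensor of vesicle release, measured 12.1, 10.3 and 1.88 CPM with both mimics and 0, 0.119 and 0.134 CPM with the control (6.49 ± 1.18, adjusted p = 0.00303, edgeR). Slc38a3, a glutamine transporter, measured 15, 17.2 and 1.65 CPM against 0, 0.476 and 0.402 CPM (5.24 ± 1.08, adjusted p = 0.00688, edgeR). Tubb4a, a tubulin subunit best known from neurons, measured 10.9, 10.5 and 2.79 CPM against 0.128, 0.357 and 0.179 CPM (5.15 ± 0.74, adjusted p = 0.000367, edgeR). All 3 genes stood under 1 CPM in every control library. Fads6, of the fatty acid desaturase family, measured 13.1, 12.7 and 2.43 CPM against 0, 0.476 and 0.581 CPM (4.72 ± 0.91, adjusted p = 0.00452, edgeR). Tnnt1, the slow skeletal troponin T, measured 29.2, 31.5 and 6.59 CPM against 2.21, 0.674 and 1.16 CPM (4.05 ± 0.75, adjusted p = 0.00327, edgeR). Mstn, myostatin, a secreted brake on muscle growth, differed from these in that replicate 3 was the highest library: it measured 4.85, 5.36 and 8.29 CPM against 0, 0.238 and 0.536 CPM (4.56 ± 0.87, adjusted p = 0.00424, edgeR). Control libraries with so few reads make the size of these rises uncertain, and leaving out control replicate 3 moved Mstn to 5.58 and leaving out control replicate 1 moved it to 3.94, while leaving out control replicate 1 moved Fads6 to 4.10, Slc38a3 to 4.62 and Syt7 to 5.90.

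**Figure D2:**
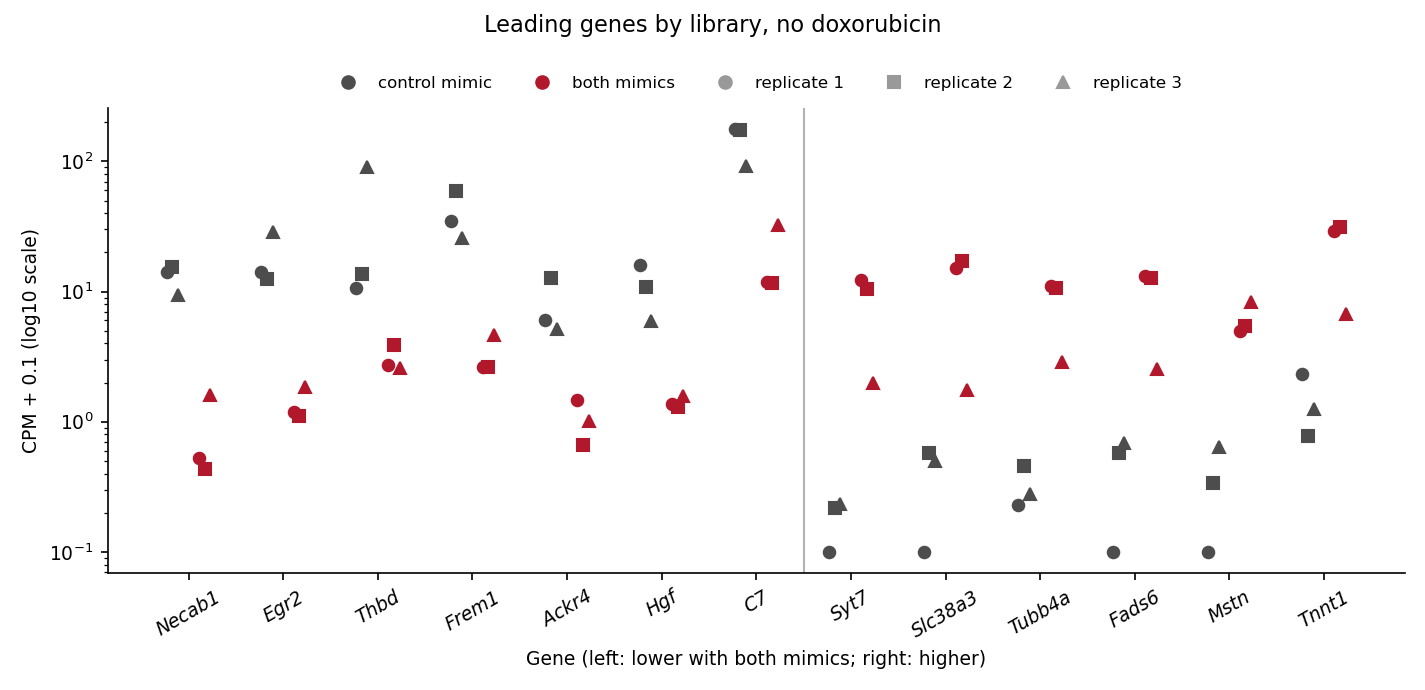
Levels of 13 genes in each library as CPM plus 0.1 on a log10 axis, control mimic in grey and both mimics in red, with symbols for the replicate numbers. The 7 lowered genes are at the left and the 6 raised genes at the right. In all 13 genes the 3 libraries with both mimics lie on one side of the 3 control libraries, because genes without overlap were chosen.

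Slc4a1, the anion exchanger of red cells and heart muscle, was at 0 counts in all 3 control libraries and measured 6.56, 5.06 and 1.05 CPM with both mimics (mean 4.22 ± 2.85, SD, n = 3). Against a floor of 3 counts over the control group this was at least 100-fold higher, and at least 138-fold higher without replicate 3 of both mimics (adjusted p = 0.00085, edgeR). Kcna5, an atrial potassium channel, measured 3.53, 6.02 and 0.870 CPM with both mimics and 0, 0 and 0.0447 CPM with the control (adjusted p = 0.00684, edgeR), and no fold is given over so few control reads. Both genes were kept throughout.

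Among 21 tested genes reported as targets of miR-222, 2 fell, 3 rose and 16 were not called, and their median log2 fold change was -0.01 against 0.07 over all genes. Ets1, a transcription factor of endothelial and stromal cells, measured 26.9, 27.3 and 31.1 CPM with both mimics against 73.8, 63.2 and 154 CPM with the control, a log2 fold change of -1.77 ± 0.25 (adjusted p = 0.000354, edgeR). It was kept throughout, and all 3 libraries with both mimics lay within a narrow range below the controls. Hipk1, a nuclear kinase reported as a miR-222 target in heart muscle, measured 73.7, 77.6 and 68.3 CPM against 104, 116 and 133 CPM (-0.69 ± 0.15, adjusted p = 0.0117, edgeR) and was called in 5 of the 6 fits without 1 library. The 3 that rose were Cdkn1c, Mgmt and Sod2. Cdkn1c, a cell cycle inhibitor, measured 13, 10.8 and 32.3 CPM against 2.38, 2.70 and 3.84 CPM (2.65 ± 0.45, adjusted p = 0.0021, edgeR) and was kept throughout; without replicate 3 of both mimics its log2 fold change was 1.96. Mgmt, which repairs alkylated DNA, measured 40.6, 44.8 and 13.7 CPM against 4.22, 9.08 and 13.2 CPM (1.90 ± 0.46, adjusted p = 0.0173, edgeR). Sod2, the mitochondrial superoxide dismutase, measured 220.3, 223 and 112 CPM against 88.1, 74.3 and 107 CPM (1.04 ± 0.27, adjusted p = 0.0273, edgeR). Mgmt and Sod2 lost the call when replicates 1 and 2 of both mimics were summed (adjusted p = 0.093 and 0.154, edgeR). In this list 1 gene was called higher without replicate 1 or 2 of both mimics or control replicate 1 or 2, 1 was called lower without replicate 1 of both mimics, and 4 were called higher and 5 lower without replicate 3 of both mimics.

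Of the reported miR-222 targets that were not called, Cdkn1b, the p27 inhibitor, measured 34.3, 34.1 and 23.2 CPM with both mimics and 35.3, 32.7 and 28.7 CPM with the control (-0.08 ± 0.33, adjusted p = 0.922, edgeR). Hmbox1, a homeobox factor, measured 3.34, 3.94 and 5.86 CPM against 11.6, 11.5 and 6.92 CPM (-1.19 ± 0.46, adjusted p = 0.118, edgeR). Timp3, a metalloproteinase inhibitor, measured 15.8, 14.7 and 51.5 CPM against 201, 128 and 54.6 CPM (-2.23 ± 0.73, adjusted p = 0.07, edgeR). For Timp3 and Hmbox1 the 3 libraries with both mimics lay below the controls, closely so in replicate 3, and each was called without replicate 3 of both mimics. Kit, a growth factor receptor, measured 13.4, 15.1 and 9.34 CPM against 27.8, 32.4 and 23.6 CPM (-1.15 ± 0.36, adjusted p = 0.0558, edgeR), also without overlap. Among 16 tested genes reported as targets of miR-455, 0 were called by edgeR or DESeq2, with a median of -0.28 and with 2 above and 1 below the control at an unadjusted p under 0.05. Leaving out replicate 3 of both mimics gave 4 lower calls and leaving out any other library of the comparison gave 0. Ei24, a p53-induced membrane protein, measured 53.8, 52.6 and 63.2 CPM against 66.2, 61.3 and 61.7 CPM (-0.16 ± 0.17, adjusted p = 0.621, edgeR). Hdac2, a histone deacetylase, measured 72.7, 71.4 and 258 CPM against 233, 134 and 112 CPM (-0.25 ± 0.43, adjusted p = 0.779, edgeR), and its replicate 3 lay above every control. Without that library Hdac2 was called, at -1.17. Smad2, which carries TGF-beta signals to the nucleus, measured 18.6, 19.8 and 44.1 CPM against 42.5, 37 and 32.2 CPM (-0.44 ± 0.30, adjusted p = 0.419, edgeR), and was called without replicate 3 of both mimics, at -0.99. Of 17 genes of the microRNA machinery, which include the Argonaute and processing proteins, 0 were called by edgeR or DESeq2 (median -0.14), with 1 above and 1 below the control at an unadjusted p under 0.05, and 1 was called lower without replicate 3 of both mimics.

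Of 14 cardiac stress genes, which heart muscle raises under load, 5 fell and 0 rose, with a median of -1.41. Control replicate 3 held much of this: without it the median was -0.76, with 1 gene called higher and 1 lower. Nppb, the B-type natriuretic peptide, measured 217, 228 and 196 CPM with both mimics and 339.5, 490.3 and 1324 CPM with the control (-1.75 ± 0.37, adjusted p = 0.00894, edgeR). The libraries did not overlap, control replicate 3 was the highest by far, and without it the log2 fold change was -0.98. Xirp1, an actin-binding protein of the intercalated disc, measured 77.5, 78.4 and 96.7 CPM against 186, 216 and 1385 CPM (-2.82 ± 0.60, adjusted p = 0.00883, edgeR), and without control replicate 3 it stood at -1.28. Fhl1, a LIM protein of the sarcomere, measured 284, 292 and 340.2 CPM against 596, 681 and 1043 CPM (-1.34 ± 0.32, adjusted p = 0.0158, edgeR). Ccn1, a matrix protein, measured 87.5, 93.8 and 44.1 CPM against 113, 135 and 383 CPM (-1.49 ± 0.45, adjusted p = 0.0495, edgeR), and -0.75 without control replicate 3. Nppa, the atrial natriuretic peptide, was not called: it measured 4409, 5343 and 1120 CPM against 2363, 2744 and 3363 CPM (0.36 ± 0.47, adjusted p = 0.699, edgeR), with replicate 3 of both mimics below every control and replicates 1 and 2 above them. Skeletal actin Acta1 showed the same split at 1273, 1511 and 159.6 CPM against 234, 233 and 397 CPM (1.77 ± 0.69, adjusted p = 0.126, edgeR). The count of stress genes that fell was 1 without replicate 1 or 2 of both mimics or with that pair summed, and without replicate 3 of both mimics 2 were called higher and 6 lower.

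Of 23 sarcomere genes, which encode the contractile filaments and their anchors, 2 rose and 3 fell, with a median of 0.04. Both that rose are atrial light chains. Myl4, the atrial essential light chain, measured 96.9, 106 and 102 CPM with both mimics against 28.1, 45.5 and 34.6 CPM with the control (1.5 ± 0.32, adjusted p = 0.0095, edgeR) and was called in 5 of the 6 fits without 1 library. Myl7, the atrial regulatory light chain, measured 77, 81.7 and 94.9 CPM against 41.7, 48.5 and 46.1 CPM (0.90 ± 0.22, adjusted p = 0.0201, edgeR). The values of replicate 3 with both mimics lay close to those of replicates 1 and 2 in both genes. Myh7, the slow beta myosin heavy chain, measured 837, 1015 and 416 CPM against 4001, 4093 and 1514 CPM (-2.08 ± 0.53, adjusted p = 0.0227, edgeR) and was called in 2 of the 6 fits. Myom2, an M-band protein, measured 4.50, 5.69 and 20.0 CPM against 48.2, 96.5 and 107 CPM (-3.06 ± 0.76, adjusted p = 0.0209, edgeR), and -4.07 without replicate 3 of both mimics. Csrp3, a Z-disc LIM protein, measured 91.9, 108 and 133 CPM against 268, 365 and 1080 CPM (-2.36 ± 0.63, adjusted p = 0.029, edgeR), and -1.53 without control replicate 3. Myh6, the fast alpha myosin heavy chain, was not called at 10350, 9935 and 10360 CPM against 6755, 6516 and 9786 CPM (0.41 ± 0.36, adjusted p = 0.535, edgeR), although all 3 libraries with both mimics were above the controls. With replicates 1 and 2 of both mimics summed, 1 sarcomere gene was called higher and 0 lower. Leaving out single libraries gave 0 to 4 higher and 0 to 5 lower calls, both highest without replicate 3 of both mimics.

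Of 19 ion channel genes 5 rose and 1 fell, with a median of 1.20. Kcnip2, a subunit of the transient outward channel, measured 211, 196 and 15.8 CPM with both mimics and 0, 0 and 4.38 CPM with the control (adjusted p = 0.0186, edgeR). It was at 0 in 2 control libraries, and replicate 3 of both mimics was far below the other libraries of its group. Kcnd3, the pore of the same channel, measured 25.1, 23.2 and 15.1 CPM against 1.92, 3.05 and 3.17 CPM (2.96 ± 0.69, adjusted p = 0.0145, edgeR). Cacna1h, a T-type calcium channel, measured 286, 266 and 63.8 CPM against 15.7, 45.5 and 46.5 CPM (2.52 ± 0.58, adjusted p = 0.0132, edgeR). Hcn2, a pacemaker channel, measured 118, 123 and 7.42 CPM against 5.07, 10.5 and 11.1 CPM (3.22 ± 0.88, adjusted p = 0.0326, edgeR), and here replicate 3 of both mimics lay among the controls. Gja1, the main ventricular gap junction protein, fell: it measured 178, 166 and 185 CPM against 369, 329 and 723 CPM (-1.43 ± 0.41, adjusted p = 0.0399, edgeR). With replicates 1 and 2 summed, and without replicate 1 or 2 of both mimics or control replicate 1, 1 channel gene was called higher, and without control replicate 2 there were 2. Of 18 cardiac transcription factors 0 were called by edgeR (median 0.36), with 1 above and 1 below the control at an unadjusted p under 0.05. Of 15 calcium handling genes 0 were called (median -0.21), with 3 higher and 3 lower at that unadjusted p, and DESeq2 called 1 lower gene in each of these lists. Leaving out replicate 3 of both mimics gave 2 lower calls among the transcription factors and 3 among the calcium handling genes, the latter with a median of -0.82.

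Fatty acid oxidation genes, which supply most of the energy of adult heart muscle, were higher: 8 of 26 rose and 0 fell, with a median of 1.07. Acaa2, the mitochondrial thiolase, measured 261, 260.0 and 131 CPM with both mimics against 53.2, 52.2 and 65.5 CPM with the control (1.93 ± 0.34, adjusted p = 0.00236, edgeR) and was kept throughout. Cpt2, which hands acyl groups to the matrix, measured 117, 108 and 93.8 CPM against 58.4, 56 and 41.5 CPM (1.03 ± 0.22, adjusted p = 0.00799, edgeR) and was called in 5 of the 6 fits without 1 library. Acadvl, the very long chain dehydrogenase, measured 304, 330.3 and 147 CPM against 59.3, 63 and 128 CPM (1.64 ± 0.36, adjusted p = 0.0103, edgeR). Hadhb, a subunit of the trifunctional protein, measured 783, 758 and 484 CPM against 299, 246 and 356 CPM (1.17 ± 0.27, adjusted p = 0.0141, edgeR). In these 4 genes no library overlapped, and replicate 3 of both mimics was the lowest of its group. Pdk4, a kinase that holds back pyruvate oxidation, measured 89.2, 85.2 and 38 CPM against 15.7, 13.1 and 8.44 CPM (2.51 ± 0.75, adjusted p = 0.0475, edgeR). The number of fatty acid oxidation genes called higher was 1 and 2 without replicates 1 and 2 of both mimics, 3, 2 and 4 without control replicates 1, 2 and 3, and 2 with replicates 1 and 2 summed.

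Nuclear genes of the respiratory chain were shifted up by a smaller amount, with 27 of 28 above 0, a median of 0.65, 3 called higher and 0 lower. Ndufv2, of complex I, measured 255, 271 and 278 CPM with both mimics and 161, 114 and 86.5 CPM with the control (1.16 ± 0.30, adjusted p = 0.0237, edgeR). Ndufa9, also of complex I, measured 222.3, 218 and 241 CPM against 146, 137 and 148 CPM (0.66 ± 0.18, adjusted p = 0.0283, edgeR). Cox5a, of complex IV, measured 397, 458 and 327 CPM against 197, 187 and 241 CPM (0.92 ± 0.23, adjusted p = 0.0226, edgeR). Of the 13 mitochondrially encoded genes 0 were called by edgeR or DESeq2 and 0 had an unadjusted p under 0.05, with a median of -0.02. Replicate 3 of both mimics set that median: without it the median was -1.43 and 1 gene was called lower. The count of nuclear chain genes called higher was 13 without replicate 3 of both mimics, 0 without replicate 1 or 2 of both mimics or control replicate 2, 1 without control replicate 1, and 0 with replicates 1 and 2 summed.

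Glycolysis genes had the highest median of the metabolic lists, 1.35, but 1 of 23 was called higher, near the share of 3.67% over all genes tested. That gene was Pgam2, the muscle phosphoglycerate mutase, at 32.7, 33.2 and 13.7 CPM with both mimics and 2.26, 5.91 and 7.10 CPM with the control (2.38 ± 0.51, adjusted p = 0.00922, edgeR). It lost the call without replicate 1 or 2 of both mimics, or with that pair summed, and 0 glycolysis genes were called in those fits. Ldha, the muscle lactate dehydrogenase subunit, measured 3077, 3189 and 982 CPM against 629.8, 709 and 1574 CPM (1.31 ± 0.49, adjusted p = 0.11, edgeR), with replicate 3 of both mimics among the controls. The 19 hypoxia-induced genes had a median of 0.98 and 0 calls by edgeR or DESeq2, with 7 higher at an unadjusted p under 0.05. Without replicate 3 of both mimics, 14 glycolysis genes and 5 hypoxia-induced genes were called higher, and without control replicate 3, 6 and 2. The hypoxia-induced mean per library, given above, moved with these counts, and its part in the metabolic results was not tested.

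Targets of NRF2, the transcription factor of the oxidant response, rose in 6 of 17 cases and fell in 0 (median 0.87). Gstm1, a glutathione transferase, measured 30.1, 27.9 and 32 CPM with both mimics and 14.2, 11.8 and 15.6 CPM with the control (1.11 ± 0.26, adjusted p = 0.0145, edgeR). Me1, the cytosolic malic enzyme that makes NADPH, measured 208, 205 and 238 CPM against 158, 114 and 108 CPM (0.77 ± 0.19, adjusted p = 0.0195, edgeR). In Gstm1 and Me1 replicate 3 of both mimics was the highest library. Fth1, the ferritin heavy chain, measured 1965, 2124 and 1386 CPM against 906, 755 and 1194 CPM (0.94 ± 0.23, adjusted p = 0.0209, edgeR). Ftl1, the ferritin light chain, measured 2463, 2450 and 263 CPM against 136, 235 and 494 CPM (2.58 ± 0.66, adjusted p = 0.024, edgeR), and Txnrd1, the cytosolic thioredoxin reductase, 443, 434 and 129 CPM against 85.7, 109.8 and 138 CPM (1.59 ± 0.46, adjusted p = 0.0427, edgeR). In Ftl1 and Txnrd1 replicate 3 of both mimics lay among the controls, and without control replicate 3 Ftl1 stood at 3.19. The number of NRF2 targets called higher was 0 with replicates 1 and 2 summed, 0, 1 and 10 without replicates 1, 2 and 3 of both mimics, and 1, 0 and 3 without control replicates 1, 2 and 3.

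Interferon-stimulated genes, which cells switch on when they sense foreign RNA or interferon, rose: 9 of 26 were higher and 0 lower, with a median of 1.33. Rsad2, the antiviral enzyme viperin, measured 9.85, 10.2 and 9.80 CPM with both mimics and 0.341, 1.51 and 0.447 CPM with the control (3.68 ± 0.58, adjusted p = 0.00114, edgeR), was kept throughout and stood at 4.61 without control replicate 2. Ddx58, which encodes the RNA sensor RIG-I, measured 10.2, 8.55 and 15.7 CPM against 4.43, 3.41 and 2.95 CPM (1.67 ± 0.32, adjusted p = 0.00454, edgeR) and was kept throughout. Cxcl10, a chemokine for T cells, measured 6.05, 5.95 and 12.9 CPM against 2.34, 1.51 and 2.28 CPM (2.02 ± 0.48, adjusted p = 0.0161, edgeR), and Ifit3, which binds viral RNA, 1.82, 2.83 and 5.31 CPM against 0.980, 0.674 and 0.402 CPM (2.26 ± 0.55, adjusted p = 0.0183, edgeR). In these 4 genes no library overlapped, and replicate 3 of both mimics stood with or above its group, unlike in Acaa2, Cpt2, Acadvl and Hadhb. In Oasl and Stat2, which follow, that replicate was the lowest of its group. Bst2, the tetherin that holds virus particles, measured 1.51, 0.781 and 1.19 CPM against 0, 0.0397 and 0.223 CPM (adjusted p = 0.0141, edgeR), a low level in every library. Oasl, an antiviral protein related to the oligoadenylate synthetases, measured 11.3, 11.2 and 7.05 CPM against 2.17, 1.39 and 0.893 CPM (2.72 ± 0.65, adjusted p = 0.0163, edgeR). Gbp2, a guanylate-binding protein, measured 9.39, 10.3 and 18.6 CPM against 8.13, 2.66 and 2.14 CPM (1.56 ± 0.43, adjusted p = 0.0326, edgeR), with control replicate 1 close to the treated libraries and a value of 2.37 without it. Stat2, which carries the interferon signal to the nucleus, measured 49.6, 48.7 and 28 CPM against 14.8, 29.8 and 14.7 CPM (1.09 ± 0.31, adjusted p = 0.0367, edgeR), with replicate 3 of both mimics just under control replicate 2. The count of called members was 5 with replicates 1 and 2 summed, 4 without replicate 1 or 2 of both mimics or control replicate 3, and 3 without control replicate 2. Of 17 NF-kB targets and cytokines, 0 were called by edgeR (median -0.10), with 2 above and 3 below the control at an unadjusted p under 0.05 and 1 higher and 1 lower by DESeq2, and the median was 0.11 without control replicate 3. Macrophage and leukocyte markers, given above, were lower with both mimics as a sum and overlapped between the groups as a mean of log2 CPM. Their part in the interferon result was not tested.

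Promoters of called members are shown because interferon-activated factors are known to bind a short motif in front of such genes. The interferon-stimulated response element was searched as GAAA, any 2 bases and GAAA on both strands in the 250 bases before each gene's start, and overlapping matches appear as 1 run of capitals. Of 17 list members with a promoter in RefSeq on build GRCr8, 12 held a match, or 70.6%, against 257 of 10555 tested genes, or 2.43%. The list was made of genes known to respond to interferon, so a high share follows from the list and is no result of these libraries. Among members that were not called, Oas1a, Oasl2, Ifih1, Ifi44l, Parp14, Irf7 and Ifi44 also held a match, and Mx1, Irf9 and Parp9 did not. A match therefore did not set called members apart. Of the 7 called members with a promoter, 5 held one. The stretches around the match are printed 5′ to 3′ on the strand of the gene, with the match in capitals.
Rsad2: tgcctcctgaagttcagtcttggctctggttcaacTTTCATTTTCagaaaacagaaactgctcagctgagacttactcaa
Bst2: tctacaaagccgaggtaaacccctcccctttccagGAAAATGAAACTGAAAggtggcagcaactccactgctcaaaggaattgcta
Cxcl10: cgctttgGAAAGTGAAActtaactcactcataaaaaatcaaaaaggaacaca
Ifit3: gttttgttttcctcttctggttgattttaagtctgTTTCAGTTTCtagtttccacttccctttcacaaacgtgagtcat
Gbp2: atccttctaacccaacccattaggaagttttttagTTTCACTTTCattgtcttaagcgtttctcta
The stretches lie for Rsad2 at chr6:48788223-48788302 (minus strand), for Bst2 at chr16:18255048-18255133 (minus strand), for Cxcl10 at chr14:15988816-15988867 (plus strand), for Ifit3 at chr1:241527247-241527325 (plus strand) and for Gbp2 at chr2:234005661-234005726 (plus strand). A match is a description of these letters and not a measured binding site.

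Of 26 p53 targets, 6 rose and 1 fell, with a median of 0.60. Rrm2b, the p53-induced subunit of ribonucleotide reductase, measured 7.88, 7.59 and 7.88 CPM with both mimics and 3.62, 2.10 and 3.08 CPM with the control (1.41 ± 0.28, adjusted p = 0.0055, edgeR) and was kept throughout. Tp53inp1, a stress-induced nuclear protein, measured 29.7, 31.2 and 20.8 CPM against 4.26, 8.85 and 7.14 CPM (2.01 ± 0.40, adjusted p = 0.00573, edgeR) and was kept throughout. Fas, a death receptor, measured 13.8, 16.7 and 30.8 CPM against 10.4, 7.42 and 6.03 CPM (1.36 ± 0.32, adjusted p = 0.0141, edgeR). Ccng1, a cyclin induced by p53, measured 1670, 1658 and 2335 CPM against 989, 678 and 673 CPM (1.27 ± 0.32, adjusted p = 0.0228, edgeR). Fas and Ccng1 were highest in replicate 3 of both mimics. Cdkn1a, the p21 cell cycle inhibitor, measured 557, 629.6 and 118 CPM against 46.5, 61.9 and 146 CPM (2.36 ± 0.60, adjusted p = 0.0236, edgeR). There replicate 3 of both mimics lay among the controls, and Cdkn1a was called in 2 of the 6 fits without 1 library and stood at 2.98 without control replicate 3. Perp, a desmosome-associated protein, fell (-0.89 ± 0.26, adjusted p = 0.0402, edgeR), but it was called in 0 of the 6 fits without 1 library, and not with the replicate block or without a filter. Mdm2, the ligase that degrades p53, was not called at 227, 258 and 194 CPM against 108, 68.9 and 84.6 CPM (1.38 ± 0.44, adjusted p = 0.0654, edgeR). The number of p53 targets called higher was 3 with replicates 1 and 2 summed and without replicate 1 or 2 of both mimics or control replicate 3, and 2 without control replicate 2.

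Of 16 G1 cyclins, kinases and inhibitors, 2 rose and 3 fell. The risers were the inhibitors Cdkn1c and Cdkn1a, given above. Ccnd1, cyclin D1, which drives entry into the cycle, measured 87.1, 101 and 50.2 CPM with both mimics and 169, 189.6 and 213 CPM with the control (-1.26 ± 0.23, adjusted p = 0.0033, edgeR) and was kept throughout. Cdk6, its kinase partner, measured 3.30, 3.76 and 4.40 CPM against 15.1, 12.3 and 14.9 CPM (-1.88 ± 0.47, adjusted p = 0.0218, edgeR) and was called in 4 of the 6 fits. Cdkn2a, an inhibitor of that kinase, measured 1.86, 2.71 and 1.92 CPM against 4.34, 16.4 and 10.3 CPM (-2.25 ± 0.67, adjusted p = 0.0475, edgeR) and was called in 1 of the 6. Of 28 DNA replication genes 2 fell and 0 rose, but 26 had a negative log2 fold change and the median was -0.86. Mcm2, of the replicative helicase, measured 21.2, 24.6 and 20.4 CPM against 48.4, 52.8 and 36.3 CPM (-1.05 ± 0.25, adjusted p = 0.0155, edgeR). Mcm4, of the same helicase, measured 23.4, 21.5 and 45.1 CPM against 107, 82.1 and 45.1 CPM (-1.38 ± 0.38, adjusted p = 0.0326, edgeR), and the 2 replicates numbered 3 were level. Of 27 mitosis genes 1 fell, near the share of 3.39% over all genes tested, and the list median was -0.22. That gene was anillin (Anln), of the cleavage furrow (-1.17 ± 0.32, adjusted p = 0.032, edgeR), and it was called in 2 of the 6 fits without 1 library. Without replicate 3 of both mimics 9 replication genes were called lower, without control replicate 3 there were 4, and in the other 4 fits without 1 library, or with replicates 1 and 2 summed, there were 0 or 1.

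Among apoptosis regulators, Diablo rose and Bcl2 fell. Diablo, a mitochondrial protein that frees caspases from their inhibitors, measured 66.7, 67.8 and 49.2 CPM with both mimics and 23.8, 33.8 and 31.3 CPM with the control (1.05 ± 0.19, adjusted p = 0.00306, edgeR) and was kept throughout. Bcl2, the survival protein, measured 0.698, 0.372 and 0.0916 CPM against 2.21, 5.00 and 3.04 CPM (-3.11 ± 0.92, adjusted p = 0.0462, edgeR), it was called in 0 of the 6 fits without 1 library, and it stood at -3.86 without replicate 1 of both mimics. Of 23 genes of endoplasmic reticulum stress and ATF4, 3 rose. Ddit3, the stress factor CHOP, measured 256, 264 and 56.4 CPM against 18.6, 25.1 and 24.3 CPM (3.09 ± 0.67, adjusted p = 0.00965, edgeR) and was called in 4 of the 6 fits. Vldlr, a lipoprotein receptor, measured 349, 332 and 275 CPM against 125, 99.5 and 129 CPM (1.44 ± 0.37, adjusted p = 0.0248, edgeR), and Sesn2, an amino acid sensor, 136, 126 and 89 CPM against 35.4, 60.0 and 64.5 CPM (1.13 ± 0.34, adjusted p = 0.0475, edgeR). With replicates 1 and 2 summed, and in each fit without control replicate 1, 2 or 3, 1 gene of this list was called, and without replicate 1 or 2 of both mimics 0. Of 14 heat shock genes 0 were called by edgeR or DESeq2 (median -0.06), with 1 higher at an unadjusted p under 0.05. In the fit without replicate 3 of both mimics 2 were called lower, and without control replicate 3 the median was 0.28.

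Fibroblast and matrix genes fell in 8 of 22 cases and rose in 0, with a median of -0.83. Fbn1, fibrillin of the elastic microfibrils, measured 196, 200.2 and 306 CPM with both mimics and 711, 924 and 592 CPM with the control (-1.66 ± 0.31, adjusted p = 0.0033, edgeR) and was kept throughout. Fn1, fibronectin, measured 1422, 1479 and 1972 CPM against 3331, 3399 and 2722 CPM (-0.96 ± 0.21, adjusted p = 0.0115, edgeR). Timp1, a metalloproteinase inhibitor, measured 29.8, 34 and 50.4 CPM against 79.1, 78.9 and 78 CPM (-1.05 ± 0.22, adjusted p = 0.00887, edgeR). In these 3 genes the libraries did not overlap, and replicate 3 of both mimics was the closest to the controls. S100a4, a calcium-binding marker of fibroblasts, measured 126, 153 and 258 CPM against 399.8, 419 and 358 CPM (-1.13 ± 0.25, adjusted p = 0.0101, edgeR). Pdgfra, the growth factor receptor that marks cardiac fibroblasts, measured 37.2, 38.5 and 37.7 CPM against 95.6, 95.6 and 100.4 CPM (-1.36 ± 0.31, adjusted p = 0.0135, edgeR), with all 3 libraries with both mimics alike. Thy1, a fibroblast surface protein, measured 7.57, 8.85 and 3.11 CPM against 20.3, 34.5 and 49.9 CPM (-2.42 ± 0.55, adjusted p = 0.0131, edgeR). Lum, the proteoglycan lumican, measured 24.2, 22.7 and 122 CPM against 284, 201 and 103 CPM (-1.80 ± 0.53, adjusted p = 0.0431, edgeR), where replicate 3 of both mimics reached into the control range and its removal gave -3.08. The number called lower was 1 and 3 without replicates 1 and 2 of both mimics, 10 without replicate 3, 7 without any 1 control library and 2 with replicates 1 and 2 summed. The other 14 genes of the list were not called, and 2 of the 22 had a log2 fold change above 0. Dcn (-0.03 ± 0.25), Col5a2 (-0.05 ± 0.27), Col1a1 (-0.15 ± 0.32), Fbln1 (0.17 ± 0.20) and Lox (0.22 ± 0.30) lay near 0, so the fall was not shared by every member. The summed level of the whole list, given with the libraries, was lower with both mimics. Fewer fibroblasts and less of these transcripts per cell cannot be told apart.

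Of 11 smooth muscle and pericyte genes 2 fell: Pdgfrb, the pericyte growth factor receptor, at 80.3, 84.4 and 81 CPM against 183, 275 and 311 CPM (-1.65 ± 0.40, adjusted p = 0.0166, edgeR), and Smtn, a contractile protein of smooth muscle, at 46, 49.2 and 34.5 CPM against 57.2, 74.3 and 144 CPM (-1.08 ± 0.30, adjusted p = 0.0367, edgeR). Among 9 tested endothelial genes Thbd was the 1 called by edgeR, where DESeq2 called 1 higher and 3 lower and leaving out replicate 3 of both mimics gave 1 higher and 2 lower. Among 9 tested macrophage and leukocyte genes, 9 epicardial and mesothelial genes and 7 Schwann and neuronal genes there were 0 by the edgeR test. At an unadjusted p under 0.05 these 3 lists held 1, 0 and 1 gene, all lower, and DESeq2 called 1 macrophage gene lower. Without replicate 3 of both mimics 1 smooth muscle gene was called higher and 1 lower, and with replicates 1 and 2 summed, or without either of them, 0 were called.

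Sterol synthesis genes were lower, with 3 of 21 called and a median of -0.87. Hmgcs1, the synthase at the entry to the mevalonate pathway, measured 46.3, 51.6 and 94.3 CPM with both mimics and 196, 242 and 176 CPM with the control (-1.68 ± 0.30, adjusted p = 0.00274, edgeR) and was kept throughout. Sqle, squalene epoxidase, measured 17.1, 15.2 and 40.5 CPM against 84, 95.1 and 119.7 CPM (-2.04 ± 0.45, adjusted p = 0.01, edgeR). Cyp51, the lanosterol demethylase, measured 41.2, 42 and 123 CPM against 162, 226 and 234 CPM (-1.59 ± 0.46, adjusted p = 0.0403, edgeR). Without replicate 3 of both mimics Sqle stood at -2.66 and Cyp51 at -2.35. No library overlapped in these 3 genes, and 11 of the 21 were lower without overlap, against 10.4% of all genes. The count called was 6 without replicate 3 of both mimics and without control replicate 1, and 1 without replicate 1 or 2 of both mimics or with that pair summed.

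Among 22 genes of the TGF-beta family 2 rose and 2 fell. Beside Mstn, the co-receptor Tgfbr3 rose, at 87, 91.6 and 46.3 CPM with both mimics and 35.8, 29.3 and 20.2 CPM with the control (1.40 ± 0.35, adjusted p = 0.0213, edgeR). Ltbp1, which stores latent TGF-beta in the matrix, measured 45.4, 44.7 and 64.3 CPM against 118, 95.6 and 112 CPM (-1.08 ± 0.25, adjusted p = 0.0129, edgeR). Bmp4, a secreted ligand, measured 4.58, 4.24 and 4.12 CPM against 6.13, 8.69 and 10.3 CPM (-0.95 ± 0.28, adjusted p = 0.0415, edgeR). Tgfbr3 was called in 2 of the 6 fits without 1 library, Ltbp1 in 4 of the 6 and Bmp4 in 2 of the 6, and 7 genes of the family were called lower without replicate 3 of both mimics. Among 21 immediate early genes Egr2 was the 1 called lower, near the share of 3.39% over all genes tested, and the list median was -0.59. That median rested on control replicate 3: without it the value was 0.45, and Egr2 was still called.

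**Figure D3:**
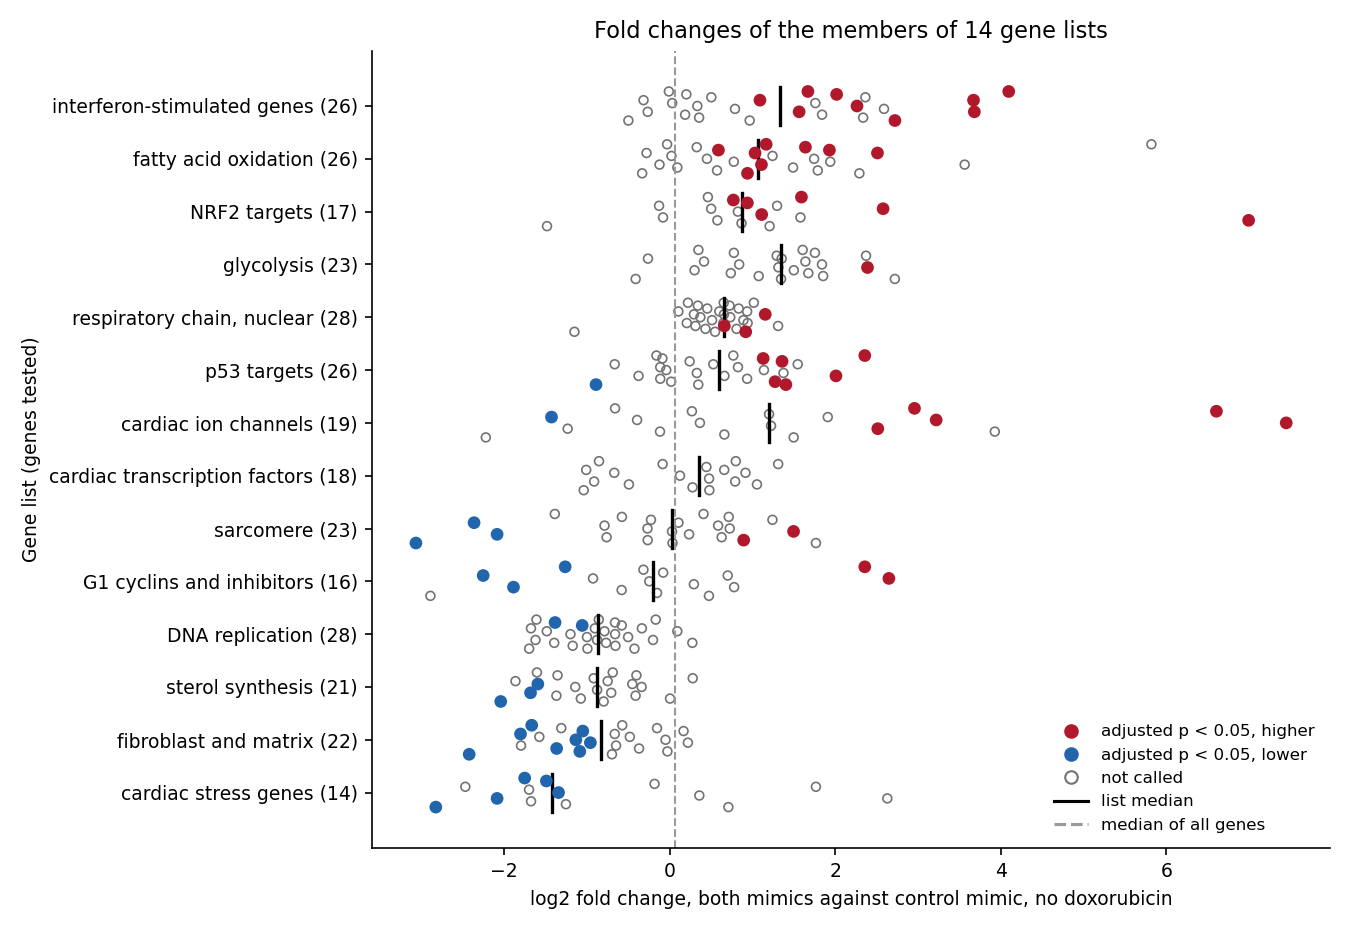
Log2 fold changes of the tested members of 14 gene lists, both mimics against control mimic without doxorubicin, with the number of genes tested in brackets. Filled points passed an adjusted p of 0.05 (red higher, blue lower), open points did not, black bars are list medians and the dashed line is the median of all genes, 0.07; the list medians run from 1.35 for glycolysis to -1.41 for cardiac stress genes.

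The combination was next set against each mimic given alone without doxorubicin. Each of the 3 treatments is compared with the same 3 control libraries, so their effects share error and are given side by side. The miR-222 mimic alone gave 1283 called genes, 8.97%, of which 644 were higher (4.50%) and 639 lower (4.47%). The miR-455 mimic alone gave 675, 4.72%, of which 353 were higher (2.47%) and 322 lower (2.25%). Set against miR-222 alone, the combination differed in 0 of 14303 genes, or 0%, by the edgeR test, with 564 at an unadjusted p under 0.05 and 24 called by DESeq2. Set against miR-455 alone it differed in 107 genes, 0.748%, of which 45 were higher (0.315%) and 62 lower (0.433%). That count was 26 to 121 when single libraries were left out, with 28, 52 and 69 without replicates 1, 2 and 3 of both mimics and 26 without replicate 1 or 3 of miR-455. With the close libraries of every group summed it was 3, and the count against miR-222 alone was 0.

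The genes that were higher in the combination than with miR-455 alone included members of the interferon response. Rsad2 measured 19.8, 17.9 and 8.03 CPM in replicates 1 to 3 of miR-222 alone and 0.230, 0.0692 and 0.307 CPM in those of miR-455 alone, so the combination lay above miR-455 by 5.62 ± 0.66 (log2, SE; adjusted p = 0.000217, edgeR) and differed from miR-222 by -0.62 ± 0.51 (adjusted p = 1, edgeR). Gbp5, a guanylate-binding protein of the interferon response, measured 3.53, 3.16 and 11.9 CPM with both mimics, 0.724, 1.27 and 0.670 CPM with the control, 9.19, 8.83 and 4.50 CPM with miR-222 and 0.184, 0.622 and 0.526 CPM with miR-455. Igfbp5, which binds insulin-like growth factors, measured 43.9, 34 and 113 CPM with both mimics, 4.90, 6.74 and 15.4 CPM with the control, 142, 145 and 166 CPM with miR-222 and 2.52, 9.72 and 3.29 CPM with miR-455. Both genes rose against the control, by 2.79 ± 0.57 and 2.82 ± 0.52 (adjusted p = 0.0068 and 0.0033, edgeR), and were kept throughout. Without replicate 3 of both mimics these values were 1.87 and 2.08, and without control replicate 3 Igfbp5 stood at 3.42. Against miR-455 alone the combination was higher by 3.77 ± 0.60 for Gbp5 and 3.61 ± 0.54 for Igfbp5 (adjusted p = 0.00404 and 0.0028, edgeR). Igfbp5 with both mimics lay below every miR-222 library, a difference of -1.25 ± 0.49 that was not called. Cdo1, which oxidises cysteine, measured 6.44, 6.51 and 2.06 CPM with both mimics, 19, 21.1 and 1.05 CPM with miR-222 and 0.230, 0.415 and 0.263 CPM with miR-455, a difference from miR-455 of 4.01 ± 0.87 (adjusted p = 0.0331, edgeR).

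Myh7 and the natriuretic peptides separated the treatments in the other direction. Myh7 measured 1040, 939.5 and 276 CPM with miR-222 alone and 12420, 6676 and 11880 CPM with miR-455 alone, and the combination differed from miR-455 by -3.77 ± 0.57 (adjusted p = 0.0028, edgeR). Nppb measured 259.5, 258 and 205 CPM with miR-222 and 949, 1403 and 1402 CPM with miR-455 (combination against miR-455 -2.55 ± 0.39, adjusted p = 0.0028, edgeR). Nppa measured 3750, 3890 and 1508 CPM with miR-222 and 22730, 8554 and 23990 CPM with miR-455 (combination against miR-455 -2.35 ± 0.49, adjusted p = 0.0263, edgeR). In all 3 genes the libraries with both mimics overlapped those of miR-222 alone and lay below every library of miR-455 alone. Ackr4 measured 0.732, 1.02 and 1.02 CPM with miR-222 and 6.47, 7.33 and 7.06 CPM with miR-455, and Hipk1 74.6, 75.8 and 59.5 CPM with miR-222 and 126, 129 and 125 CPM with miR-455. Both were lower in the combination than with miR-455 alone (adjusted p = 0.00051 and 0.0166, edgeR).

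In a test of the combination against the sum of both single effects on the log2 scale, 2 genes of 14303, 0.014%, were called, and both were below the sum. Myl4 measured 92.6, 86.4 and 85.1 CPM with miR-222 alone and 300.5, 349 and 326 CPM with miR-455 alone, beside the 96.9, 106 and 102 CPM with both mimics given above. Its effects were 1.29 ± 0.32 for miR-222, 3.17 ± 0.34 for miR-455 and 1.5 ± 0.32 for both, which is -2.96 ± 0.46 from the sum (adjusted p = 0.0184, edgeR). Cend1, a protein of neuronal differentiation, measured 1.06, 1.31 and 1.12 CPM with the control, 3.92, 4.90 and 5.59 CPM with miR-222, 13.3, 16.4 and 15.2 CPM with miR-455 and 7.64, 6.73 and 5.95 CPM with both. Its effects were 2.04 ± 0.35, 3.68 ± 0.37 and 2.54 ± 0.36, which is -3.18 ± 0.49 from the sum (adjusted p = 0.0184, edgeR). For both genes the combination lay between the single treatments. DESeq2 called 221 genes in this test, edgeR called 0 with replicates 1 and 2 of both mimics summed or with the close libraries of every group summed, and leaving out single libraries gave 0 in 9 of 12 fits, 2 without miR-222 replicate 1, 1 higher gene without miR-455 replicate 2 and 7 without control replicate 3.

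**Figure D4:**
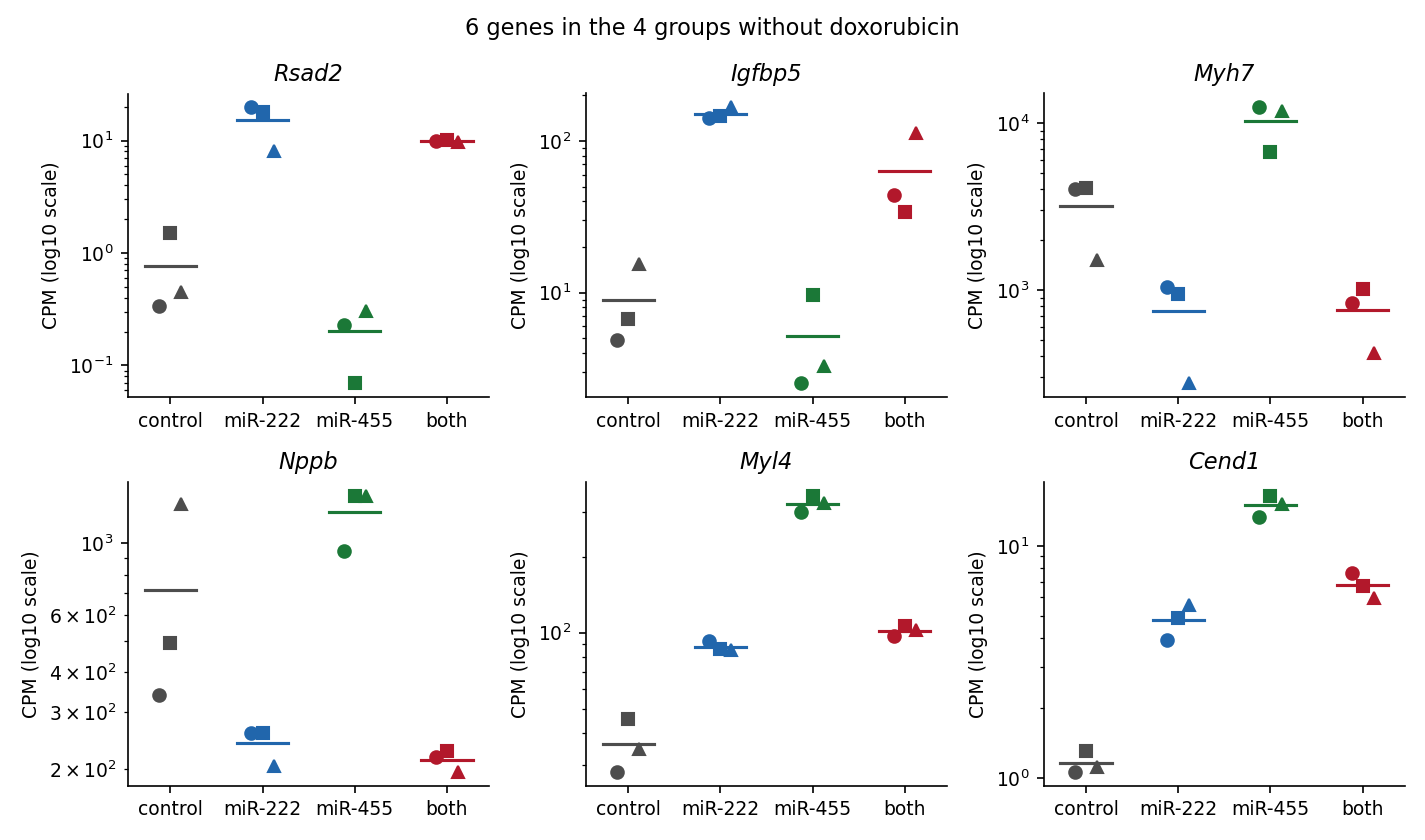
CPM on a log10 axis of 6 genes in the 3 libraries of each group without doxorubicin, with a bar at the group mean and symbols for the replicate numbers. Rsad2, Igfbp5, Myh7 and Nppb with both mimics lie nearer to miR-222 alone than to miR-455 alone, and Myl4 and Cend1 with both mimics lie between the single treatments.

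The effect of both mimics was last compared with that in cells treated with doxorubicin, in 6 further libraries that share none with those above. The doxorubicin dose is 4 uM by the sample protocol but 4 mM by the series text, which these data do not settle. With doxorubicin 794 genes were called, 5.55%, of which 397 were higher (2.78%) and 397 lower (2.78%). Of the 1010 genes called without doxorubicin, 247 were called in the same direction with it, 99 higher and 148 lower, and 2 in the opposite direction. The 247 are 24.5% of the calls without the drug and 31.1% of those with it. The sign was the same for 847 of the 1010, or 83.9%, against 58.5% of all genes tested. Among genes that fell without doxorubicin 436 of 485, or 89.9%, were also negative with it, and among those that rose 411 of 525, or 78.3%, were also positive. With the close libraries of every group summed the shared number was 31, with replicates 1 and 2 of both mimics summed it was 118, and among libraries without doxorubicin it was 110, 120 and 349 without replicates 1, 2 and 3 of both mimics and 157 without control replicate 2.

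Frem1, Ackr4 and Hgf fell in both settings: with doxorubicin their log2 fold changes were -2.55 ± 0.45, -2.83 ± 0.36 and -2.22 ± 0.51 (adjusted p = 0.00161, 6.31e-05 and 0.0117, edgeR). Ccnd1 (-1.76 ± 0.24, adjusted p = 0.000105, edgeR), Thy1 (-3.17 ± 0.57, adjusted p = 0.00177, edgeR) and Timp1 (-1.57 ± 0.23, adjusted p = 0.000208, edgeR) were also lower with the drug. Among the genes that rose, Mstn (4.25 ± 0.87, adjusted p = 0.00504, edgeR), Diablo (1.36 ± 0.19, adjusted p = 0.000159, edgeR) and Vldlr (2.42 ± 0.38, adjusted p = 0.00057, edgeR) were higher with it as well. Several raised lists were not raised with the drug. Medians with it were -0.48 for fatty acid oxidation, -0.27 for interferon-stimulated genes, -0.20 for p53 targets and -0.18 for the nuclear respiratory chain. Over all genes the median was -0.06. Glycolysis stood at 0.31 and NRF2 targets at 0.03, and the lowered fibroblast and sterol lists at -0.55 and -0.45. These list differences were not tested. Rsad2 was not called with doxorubicin (0.45 ± 0.51, adjusted p = 0.689, edgeR), and neither were Ets1 (-0.14 ± 0.25, adjusted p = 0.818, edgeR) and Cdkn1a (-0.47 ± 0.57, adjusted p = 0.711, edgeR). A test of the difference did not call these last 3 (with minus without -3.23 ± 0.76, 1.64 ± 0.35 and -2.83 ± 0.83, adjusted p = 0.0822, 0.0754 and 0.152, edgeR). That test called 8 genes, 0.0559%, 1 higher (0.00699%) and 7 lower (0.0489%), which are given one by one after the report. Its count was 894 without replicate 3 of both mimics without doxorubicin. It was 0 with replicates 1 and 2 summed, with the close libraries of every group summed, without either of that pair, and without control replicate 1 or 2, all without doxorubicin. Among libraries with doxorubicin it was 31 and 0 without replicates 1 and 3 of both mimics and 16, 2 and 1 without control replicates 1, 2 and 3.

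**Figure D5:**
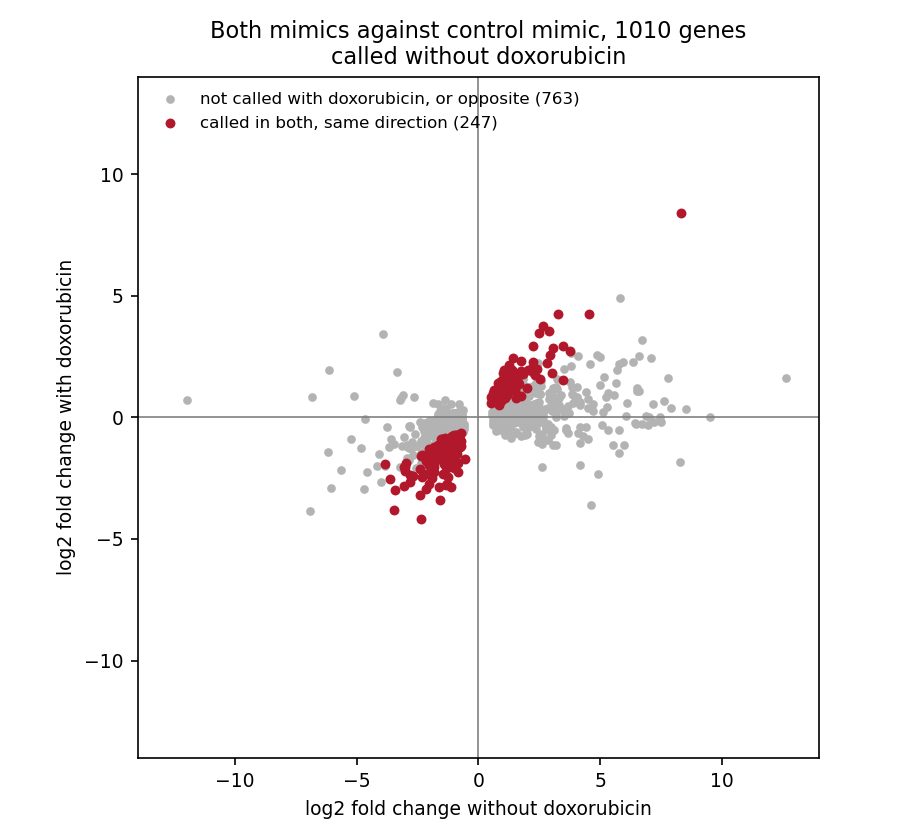
Log2 fold change of both mimics against the control mimic without doxorubicin (x axis) and with it (y axis) for the 1010 genes called without doxorubicin, each point 1 gene; values of genes with control libraries at 0 depend on the fitting prior. Red points, 247 genes, were called in both settings in the same direction, and most grey points lie in the quadrants of equal sign.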

How the data were processed

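RNA of 24 libraries in 8 groups of 3 was sequenced. Per the submitters' processing notes, the authors made the deposited estimated counts per gene with processing that names Salmon, DESeq2 and build Rnor_6.0, without versions or order. Of these expected counts 7.35% were not whole and were rounded. Each column was matched to a library by its name.

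Genes were filtered with edgeR's filterByExpr, which kept 14303 of 21767 genes, scaled by TMM and tested with edgeR 4.0.16 (quasi-likelihood F test, R 4.3.3) in 1 model of 8 group means over all 24 libraries, which share 1 estimate of the spread. P-values were adjusted by Benjamini-Hochberg over all genes tested, with a threshold of 0.05. CPM are TMM-scaled, and log2 fold changes carry a standard error derived from the F statistic. The test was checked on simulated data. Alternatives were DESeq2 1.42.0 (test and size factors), other filters, a fit to the compared groups alone, a replicate block, replicates 1 and 2 of both mimics summed, leaving out each library and, added after seeing the data, the libraries of a group within a chi-square of 10 per degree of freedom summed in every group, with the same genes.

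Named were the 12 genes that rose and the 12 that fell furthest (called, with a symbol, groups that do not overlap and a mean of 5 CPM or more in whichever group was higher), up to 4 higher and 4 lower called genes of each other test, the 4 genes of each of 35 lists with the lowest p, reported targets, and fixed heart and cell cycle genes; of these the text gives values for those it turns on, and a few results are not reported here. Hcn2, Gja1, Ccn1, Csrp3, Pdk4, Txnrd1, Oasl, Ifit3, Gbp2, Stat2, Cdkn2a, Perp, Thy1, Pdgfra, Lum, Mdm2, Arl2bp, RGD1310352 and the genes of the other observations, Nid1 among them, were named after their values were seen. The members and lists were chosen with earlier results of these data known. Sequences are from RefSeq on build GRCr8, and expression was matched to them by symbol.

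Same-numbered libraries of both mimics and the control deviated from their group means with correlations of -0.499, 0.0165 and -0.581 over genes, so the numbers were not taken to pair them. For both mimics and miR-222 alone the correlations were 0.321, 0.319 and 0.427, all over 0.1, although replicates 1 and 2 deviated together across numbers as well. The test between these 2 groups did not pair their libraries, and only the fit with the replicate block used the numbers. Totals of 17311949 to 25750309 counts a library limit the precision of genes near 1 CPM or less.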

Additional observations from a re-analysis of the deposited data

Results flagged for a closer look

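The effect of both mimics differed with and without doxorubicin for 8 genes by a test of that difference (edgeR, Benjamini-Hochberg adjustment), and for 2 genes the combination differed from the sum of the single effects by such a test. With the close libraries of every group summed, both tests called 0 genes. A log2 value with an SE here is the effect with the drug minus the effect without it. Hccs, which attaches heme to cytochrome c, measured 27.8, 28.6 and 30.4 CPM with both mimics and 70.9, 60.4 and 56.8 CPM with the control without doxorubicin, and 12.1, 13.1 and 10.1 CPM and 108, 68.7 and 80.5 CPM with it, a difference of -1.75 ± 0.30 (adjusted p = 0.0318, edgeR). RGD1310352 measured 37.2, 39.4 and 40.8 CPM against 122, 108 and 128 CPM without the drug and 54.7, 47.5 and 55.2 CPM against 379, 414 and 348 CPM with it (-1.25 ± 0.21, adjusted p = 0.0318, edgeR). Both genes fell in either setting, further with the drug, and their libraries overlapped in neither.

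Arl2bp, a binding partner of the GTPase Arl2, measured 53.2, 53.4 and 50.7 CPM against 74.8, 73 and 80.2 CPM without the drug and 56.6, 42.8 and 58.1 CPM against 177, 174 and 169 CPM with it (-1.19 ± 0.21, adjusted p = 0.0379, edgeR). Nap1l4, a histone chaperone, measured 62.3, 68 and 89.4 CPM against 126, 94.4 and 97.5 CPM without it and 45.3, 44.3 and 39.3 CPM against 179, 176 and 155 CPM with it (-1.45 ± 0.25, adjusted p = 0.0318, edgeR). LOC306766 measured 38.5, 32.7 and 30.8 CPM against 44.3, 43.4 and 55.7 CPM without it and 55.9, 38.2 and 45.8 CPM against 180.3, 176 and 169.7 CPM with it (-1.42 ± 0.24, adjusted p = 0.0318, edgeR). In these 3 genes the controls with doxorubicin stood above those without it, and the libraries with both mimics lay below their controls in both settings.

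Adra1d, an alpha-1 adrenergic receptor, rose without the drug, at 22.4, 24.4 and 14.2 CPM against 1.15, 3.09 and 5.76 CPM (an effect without the drug of 2.61, and of 3.23 without control replicate 3), and fell with it, at 0.470, 0.747 and 0.586 CPM against 1.01, 4.64 and 1.55 CPM (difference -4.63 ± 0.78, adjusted p = 0.0318, edgeR). Nedd9, a scaffold of focal adhesions, measured 32.2, 25.5 and 44.9 CPM against 57.1, 44.5 and 56.4 CPM without the drug and 37, 39.1 and 45.9 CPM against 21.7, 19.9 and 12.7 CPM with it (1.79 ± 0.33, adjusted p = 0.0492, edgeR). Slc4a1 measured 6.56, 5.06 and 1.05 CPM against 0 in all controls without the drug and 1.92, 0.995 and 2.17 CPM against 0, 2.94 and 1.99 CPM with it, and its fitted difference of -9.51 (adjusted p = 0.0379, edgeR) depends on the prior count and gives no size. Myl4 and Cend1, described in the report, lay -2.96 and -3.18 from the sum of the single effects on the log2 scale. No explanation was tested for any of these 10 genes. Groups of 3 libraries were not searched for outlying values.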

How the results depend on the processing

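The count of genes called between both mimics and the control without doxorubicin was 1010 and moved by over 1.5 times in these settings: 1871 with DESeq2, 0 in the fit of the compared groups alone, 282 with replicates 1 and 2 of both mimics summed, and 267 to 2718 when single libraries were left out. The split of 52.0% higher calls went to 36.9% and 38.9% without control replicates 1 and 2. In alternatives chosen after seeing the data, it was 3828 without replicate 3 of both groups 1414 without both mimics replicate 3 and control replicate 1, which held the fewest genes, and 55 with the close libraries of every group summed. That last setting gave 3 against miR-455 alone, 31 shared with doxorubicin, and 0 against miR-222, beyond the sum and for the difference with doxorubicin. The count against miR-222 alone was 0 in every edgeR setting, 0 to 0 with single libraries left out, and 24 with DESeq2. Against miR-455 alone it was 107, and 400 with DESeq2, 0 in the compared groups alone, 35 with the summed library and 26 to 121 with single libraries left out. Beyond the sum of single effects it was 2, and 221 with DESeq2, 0 with the summed library and 0 to 7 with single libraries left out. The difference between effects with and without doxorubicin was called for 8 genes, and for 368 with DESeq2, 13 with the filter of 1 CPM in 3 libraries, 0 without a filter, 0 in the compared groups alone, 0 with the summed library and 0 to 894 with single libraries left out. The number shared with doxorubicin was 247, and, in settings added after seeing the data, 438 with DESeq2, 0 in the compared groups alone, 118 with the summed library and 110 to 349 with single libraries left out.

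The replicate number as a block gave 712 calls for both mimics against the control, 0 against miR-222 alone, 73 against miR-455 alone, 2 beyond the sum, 184 shared with doxorubicin, and 0 in place of 8 for the difference with doxorubicin, where the libraries share only a number. Of the 1010 called genes 0 took the opposite sign in any setting that tested them, which says little because the settings reuse the same libraries. Among genes not called, Cdkn1b went from -0.08 to 0.12 without both mimics replicate 3 and control replicate 1, and ran from -0.20 to 0.056 when single libraries were left out. Hdac2 went from -0.25 to 0.023 with the summed library, to 0.022 with all close libraries summed, and ran from -1.17 to 0.083 when single libraries were left out. Nppa went from 0.36 to a range of -0.061 to 0.75, the lowest without replicate 2 of both mimics. The cause of these changes was not tested. Depth limits genes with few control reads, such as Kcna5, Syt7 and Slc4a1, whose direction the counts show and whose fold they do not fix.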

Other observations

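The genes described here were named after their values were seen, and all but Actn1 were among those kept throughout. With the close libraries of every group summed, Col4a4, Col4a3, Nid1, Mt1, Mt2A, Maoa, Bckdhb, Hipk2 and Dkk3 were called and the others were not. Col4a4, Col4a3 and Nid1 encode proteins of the basement membrane, and each fell. Col4a4, a type IV collagen chain, measured 87.6, 97.2 and 82.5 CPM with both mimics and 504, 541 and 699.7 CPM with the control without doxorubicin (-2.71 ± 0.20, SE, log2; adjusted p = 1.8e-07, edgeR). Col4a3, its partner chain, measured 24, 26.2 and 35.3 CPM against 104, 112 and 137 CPM (-2.05 ± 0.28, adjusted p = 0.000256, edgeR). Nid1, which links laminin to that collagen, measured 219.8, 228 and 203 CPM against 560.4, 709.6 and 624 CPM (-1.54 ± 0.23, adjusted p = 0.000725, edgeR). With doxorubicin the 3 genes were lower as well, at -2.43, -1.29 and -1.48. Itgb1, the beta1 integrin, measured 486, 493 and 1404 CPM against 4086, 2880 and 2661 CPM (-2.01 ± 0.39, adjusted p = 0.0044, edgeR), and -2.74 without replicate 3 of both mimics. Vcl, vinculin, measured 265, 261 and 480.3 CPM against 916, 777 and 1221 CPM (-1.53 ± 0.25, adjusted p = 0.00144, edgeR). Parva, Cttn, Cav1 and Actn1, which encode proteins of the actin anchor and the membrane, changed by -1.28, -1.15, -1.22 and -1.35 on the log2 scale (adjusted p = 0.00274, 0.00356, 0.00677 and 0.00858, edgeR), and Actn1 was called in 5 of the 6 fits without 1 library. Adhesion genes were not tested as a list, so how many did not fall is not given. In Itgb1, Vcl, Parva, Cttn, Cav1 and Actn1 replicate 3 of both mimics was the closest of its group to the controls. Fibroblast marker levels, given in the report, were also lower, and their part in the result was not tested.

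Among the genes that rose, Mt1, a metal-binding metallothionein, measured 58.6, 47.1 and 49.6 CPM against 5.96, 5.87 and 6.65 CPM (3.07 ± 0.49, adjusted p = 0.00128, edgeR), and Mt2A, of the same family, 14.9, 17 and 23 CPM against 2.04, 3.33 and 3.84 CPM (2.57 ± 0.42, adjusted p = 0.00158, edgeR). Near-identical copies of metallothionein genes can share reads, so the split between these 2 is uncertain. Maoa, which oxidises monoamines at the mitochondrion, measured 167, 160.5 and 171 CPM against 52.2, 43.3 and 52.2 CPM (1.76 ± 0.22, adjusted p = 0.000113, edgeR). In Mt1 and Maoa all 3 libraries with both mimics stood close together and far above the controls. Bckdhb, Mccc2 and Acat1, which act in the breakdown of branched-chain amino acids, rose by 1.55, 1.5 and 0.85 on the log2 scale (adjusted p = 0.000172, 0.00128 and 0.00362, edgeR). Of genes that fell, Hipk2, a nuclear kinase related to Hipk1, measured 10.0, 8.85 and 8.01 CPM against 49.3, 49 and 89.6 CPM (-2.80 ± 0.33, adjusted p = 8.54e-05, edgeR), and Dkk3, a secreted protein of the Dickkopf family, 28.8, 31.2 and 16.9 CPM against 93.9, 124 and 178 CPM (-2.36 ± 0.27, adjusted p = 5.19e-05, edgeR). With doxorubicin Hipk2 stood at -2.66 and Dkk3 at -4.17.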
